A study of Mus musculus with 5 samples.

Results

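The genes described here are the cytosolic aminoacyl-tRNA synthetases and the transcription factor ATF4 with its target genes, chosen by name. The list held 35 gene symbols, 20 synthetases and 15 genes of the ATF4 set, and 33 of them had a probe set among the 12393 genes that the array annotation names singly. Dars and Mars1 had none there and were not analysed here. The names were put together with the genotype differences of these arrays known, so the differences of the members are given as a description and were not tested as evidence for the list. Expression was measured on Affymetrix arrays in aortas of male mice of the stock BKS.Cg-m +/+ Lepr db/J, 16 to 20 weeks old and fed regular chow. Mice homozygous for the db allele (db/db) have no signalling leptin receptor and become obese and diabetic. They gave 3 arrays (replicates 1, 2 and 3), and heterozygous mice (db/+) gave 2 (replicates 2 and 3), the remaining db/+ pool being not analysed here. All mice of both groups carried at least 1 db copy, and as the stock name is written, the coat colour allele m lies on the chromosome copy opposite db. Each array held RNA pooled from 6 aortas stripped of adventitia and periaortic fat, so the spread between arrays is that between pools.

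Aminoacyl-tRNA synthetases join each amino acid to its transfer RNA, the step that makes it available to the ribosome. When amino acids run short, uncharged transfer RNA activates the kinase GCN2. GCN2 and its relatives phosphorylate the translation factor eIF2 alpha, which slows protein synthesis and raises translation of the ATF4 messenger. ATF4 then pairs with C/EBP proteins at a composite DNA element, called CARE, in genes for amino acid synthesis, amino acid transport and transfer RNA charging. ATF4 is controlled mainly at translation, so its messenger level is not a measure of its protein.

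Signals were MAS5 values on a linear scale. Log2 changes were taken as db/db minus db/+ on the log2(signal + 16) scale, and their standard error (SE) is that of limma. Each gene was read by the probe set with the highest mean over the 5 arrays. A gene was tested if that mean lay above the 40th percentile of all probe sets, a signal of about 39.5, which 32 of the 33 genes did. They were 18 synthetases and 14 genes of the ATF4 set, and Sesn2 lay below. The correlation of log2 signals between arrays, taken over probe sets, was from 0.952 to 0.977, and no pair that held db/db replicate 1 exceeded 0.965. By their mean over the 5 arrays, all 8 smooth muscle markers (Acta2, Myh11, Tagln, Cnn1, Smtn, Lmod1, Mylk and Des) lay above the filter. So did all 7 measured brown fat markers and all 8 cardiac markers. As the filter uses that mean, it does not show presence on each array. A difference in signal may come from fewer cells of a type or from less RNA per cell, and these cannot be told apart in pooled tissue.

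The DNA of the members was examined for the CARE element, at which ATF4 acts on target genes. The choice of names did not use the sequences. A list of ATF4 target genes may hold the element more often by its making, so its share is a description and no support for the list. RefSeq promoter windows of assembly GRCm38.p6, from 250 bases before to 50 bases after the gene start, were given for 27 of the 35 members. Cars, Hars, Lars, Nars, Rars, Vars, Wars and Slc7a5 had no window. The letters TGATGNAA were searched on both strands. They were found in 5 of 13 synthetase genes (38.5%) and in 3 of 14 genes of the ATF4 set (21.4%), against 1219 of all 27025 genes with a window (4.51%). A match is a run of letters, and binding was not measured. As a comparison motif, the endoplasmic reticulum stress element, CCAAT and CCACG with 9 bases between them, was found in 0 of 13 synthetase genes and 0 of 14 genes of the ATF4 set. It was found in 8 of 17 genes of the ATF6 and XBP1 arm of the unfolded protein response (47.1%) and in 0.137% of all genes.

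The 8 members with a CARE match are given from 120 bases before to 30 bases after the RefSeq start, 5′ to 3′ on the gene's own strand, because their values can then be set against a shared element. Capitals mark the match, which reads TTNCATCA where it lies on the other strand. For Chac1, whose match lies farther upstream, 30 bases on either side of it are shown. Coordinates are those of GRCm38.p6. They are chr4:129189783-129189932 (plus strand) for Yars, chr8:111033722-111033871 (plus strand) for Aars, chr6:55037881-55038030 (plus strand) for Gars and chr13:49682010-49682159 (plus strand) for Iars. They are chr15:11399629-11399778 (minus strand) for Tars, chr6:7693180-7693329 (minus strand) for Asns, chr2:152344031-152344180 (minus strand) for Trib3 and chr2:119351019-119351086 (plus strand) for Chac1.
Yars: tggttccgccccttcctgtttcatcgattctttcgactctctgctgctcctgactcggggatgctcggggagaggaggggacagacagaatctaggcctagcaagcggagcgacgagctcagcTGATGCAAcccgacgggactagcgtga
Aars: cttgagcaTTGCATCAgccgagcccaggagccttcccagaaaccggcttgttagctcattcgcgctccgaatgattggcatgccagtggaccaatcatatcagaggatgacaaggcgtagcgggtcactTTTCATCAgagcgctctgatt
Gars: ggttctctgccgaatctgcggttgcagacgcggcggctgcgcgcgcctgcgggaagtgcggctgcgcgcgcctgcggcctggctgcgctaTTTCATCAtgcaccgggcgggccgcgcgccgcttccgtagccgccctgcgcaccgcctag
Iars: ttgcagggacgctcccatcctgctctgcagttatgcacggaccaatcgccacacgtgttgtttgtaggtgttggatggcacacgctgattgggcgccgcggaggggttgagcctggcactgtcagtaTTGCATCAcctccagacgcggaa
Tars: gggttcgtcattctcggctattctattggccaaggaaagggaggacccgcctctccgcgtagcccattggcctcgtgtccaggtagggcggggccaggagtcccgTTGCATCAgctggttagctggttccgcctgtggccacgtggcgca
Asns: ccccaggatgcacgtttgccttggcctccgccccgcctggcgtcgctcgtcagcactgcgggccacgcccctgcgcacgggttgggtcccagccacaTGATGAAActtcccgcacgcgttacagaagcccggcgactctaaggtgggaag
Trib3: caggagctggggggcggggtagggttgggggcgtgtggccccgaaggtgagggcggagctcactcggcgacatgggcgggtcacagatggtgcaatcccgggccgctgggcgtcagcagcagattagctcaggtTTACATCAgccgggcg
Chac1: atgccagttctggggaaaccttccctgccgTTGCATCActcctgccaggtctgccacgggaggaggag

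The first base of the match lay 4 bases after the start in Yars, 8 after it in Iars and 15 after it in Trib3, counting the start as base 1. It lay at −15 in Tars, −23 in Asns, −30 in Gars and −193 in Chac1. Aars had 2 matches, at −112 and at 10. In Yars and Asns the match was on the gene's strand, and in the other 6 genes on the opposite one.

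**Figure D1:**
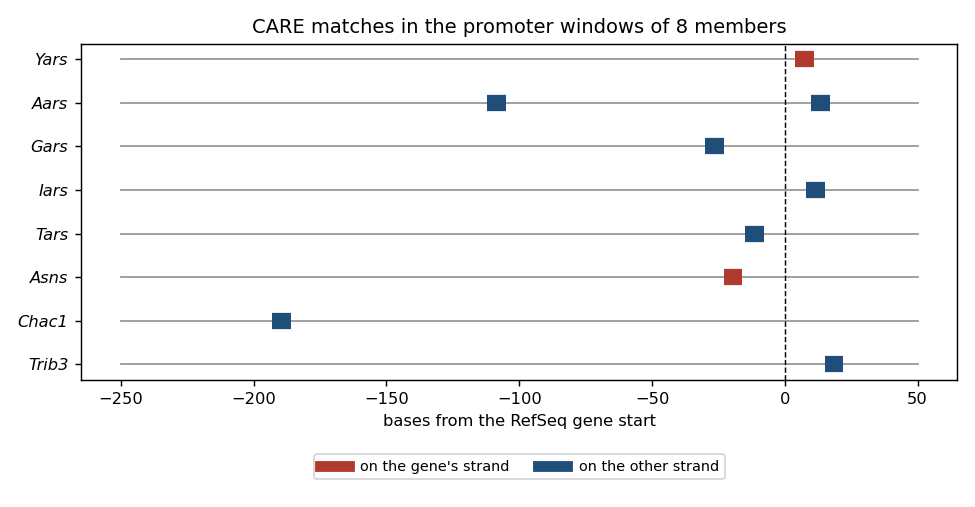
Position of CARE matches (boxes, coloured by strand) in the promoter windows of 8 members, in bases from the RefSeq gene start (dashed line). Aars has 2 matches and the other genes 1 each, and the match of Chac1 at −193 is the farthest from the start.

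Most synthetases differed little between genotypes, and Yars stood apart from the others. Over the 18 synthetases measured the median log2 change was −0.10, the quartiles were −0.14 and −0.03, and the changes ran from −0.23 to 0.81. Over all 8263 genes tested the median was 0.02 and the quartiles were −0.13 and 0.16. Of the 18 genes, 14 had a negative and 4 a positive log2 change, where 46.1% of all genes were negative. The standard errors of the synthetases lay between 0.15 and 0.23, so most of their changes were no larger than 1 SE. In limma's fit over all probe sets, 0 of the 18 passed an adjusted p of 0.05, where 0.109% of all genes passed, all of them lower in db/db. At an unadjusted p under 0.05 there was 1, Yars, where 8.6% of all genes lay. These counts describe the list and are no support for it.

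Yars encodes the synthetase of tyrosine. Its signal was 196.9, 188.6 and 194.7 in db/db, against 92.3 and 115.7 in db/+. All 3 db/db arrays lay within a narrow band far above both db/+ arrays. The means were 193 ± 4.3 in db/db (SD, n = 3) and 104 ± 16.5 in db/+ (SD, n = 2). The log2 change was 0.81 (SE 0.16, limma adjusted p = 0.16), or 1.75-fold on the log2(signal + 16) scale, and the gene did not pass the threshold. It was read by 1 probe set. Over 14 settings of the analysis its log2 change ranged from 0.62 to 0.95. Other filters could not move it, and a replicate block gave the same value as leaving out db/db replicate 1. Without Yars, 17 synthetases remained, with log2 changes from −0.23 to 0.39 and the same median of −0.10.

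Yars and Sesn2 were the 2 members on chromosome 4, which also carries Lepr, and genotype at Lepr and the chromosome 4 copy it sits on cannot be told apart in this design. The protein-coding neighbours of Yars, 6 on either side in the RefSeq table, were looked at after its value was seen. Of these 12, 5 had a probe set past the filter, with log2 changes from −0.11 to 0.25, overlapping signals between genotypes and 0 past the threshold (0 also at an unadjusted p under 0.05). The gene next to Yars, C77080, lay below the filter. Its signals were 30.2, 28.5 and 35.4 in db/db, against 14.8 and 5 in db/+, so that its arrays did not overlap either. On the other side S100pbp had 141.2, 124.2 and 144.3 in db/db, against 108.5 and 140.7 in db/+, where the genotypes overlapped.

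Of the multisynthetase complex, a cytosolic assembly that holds several of these enzymes together, the synthetases Eprs, Iars, Kars, Lars, Qars and Rars were measured. Dars and Mars1 also belong to it and had no probe set. Log2 changes were 0.39 (SE 0.23) for Eprs, the fused synthetase of glutamate and proline, and 0.08 (SE 0.17) for Lars, that of leucine. Iars (isoleucine), Kars (lysine), Qars (glutamine) and Rars (arginine) had −0.20, −0.11, −0.08 and −0.10, with SE between 0.15 and 0.20. All 6 overlapped between genotypes by their brightest probe sets. A second probe set of Iars did not, with 132, 127.4 and 141.2 in db/db, against 154.4 and 159.3 in db/+ (−0.21, SE 0.15). The probe sets of Eprs did not agree. Its brightest gave 144.7, 175.3 and 188 in db/db, against 163.1 and 94.1 in db/+. Another gave 48.3, 48.7 and 47.3 in db/db, against 78 and 80.7 in db/+, which gave a log2 change of −0.57 (SE 0.15). The remaining one gave 124, 146.2 and 140.8 in db/db, against 120.7 and 122.8 in db/+ (0.15, SE 0.16). The first was spread in db/+ and overlapped. The second and the remaining one separated the genotypes in opposite directions, so no direction is given for Eprs.

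The complex also holds scaffold proteins without synthetase activity. Aimp1 had a log2 change of −0.03 (SE 0.18) and Aimp2 of 0.02 (SE 0.17). Eef1e1, a further scaffold, had 101.8, 81.4 and 128 in db/db, against 130.8 and 171.4 in db/+ (log2 change −0.49, SE 0.21, limma adjusted p = 0.60). All db/db arrays were below both db/+ arrays, by little for replicate 3, and the gene did not pass. Xpot, which exports transfer RNA from the nucleus, had 0.12 (SE 0.16). Of the 9 measured genes of the scaffold and of transfer RNA handling, 0 passed in either direction, with 1 lower at an unadjusted p under 0.05, where 4.25% of all genes were lower, and their median was 0.06.

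Outside the complex, 2 synthetases besides Yars had signals that did not overlap between genotypes, both lower in db/db. Nars (asparagine) had 454, 505.2 and 431.2 in db/db, against 526 and 556.8 in db/+, which gave a log2 change of −0.22 (SE 0.16). Hars (histidine) had 245.8, 277 and 245.5 in db/db, against 286.7 and 298.7 in db/+, which gave a log2 change of −0.18 (SE 0.15). The gaps between genotypes were small beside the spread within them. Each had a second probe set that overlapped, with −0.09 for Nars and −0.01 for Hars. The 3 synthetases without overlap, of 18, compare with 25.6% of all genes tested. Without db/db replicate 1 there were 6, where 37.3% of all genes did not overlap.

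Aars (alanine) had the lowest log2 change of the list, −0.23 (SE 0.18). Its signals were 348.8, 259.4 and 287.4 in db/db, against 327.3 and 373.8 in db/+, and they overlapped through db/db replicate 1. Its other probe set had −0.13. Sars (serine), Cars (cysteine), Gars (glycine) and Tars (threonine) had −0.14, −0.13, −0.10 and −0.06. Both subunits of the phenylalanine enzyme, Farsa and Farsb, were near 0, at −0.03 and −0.09. Vars (valine) had 0.18 (SE 0.20). Wars (tryptophan), a gene that interferon gamma induces, had −0.10 (SE 0.21), and its 3 probe sets past the filter ran from −0.10 to 0.12.

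**Figure D2:**
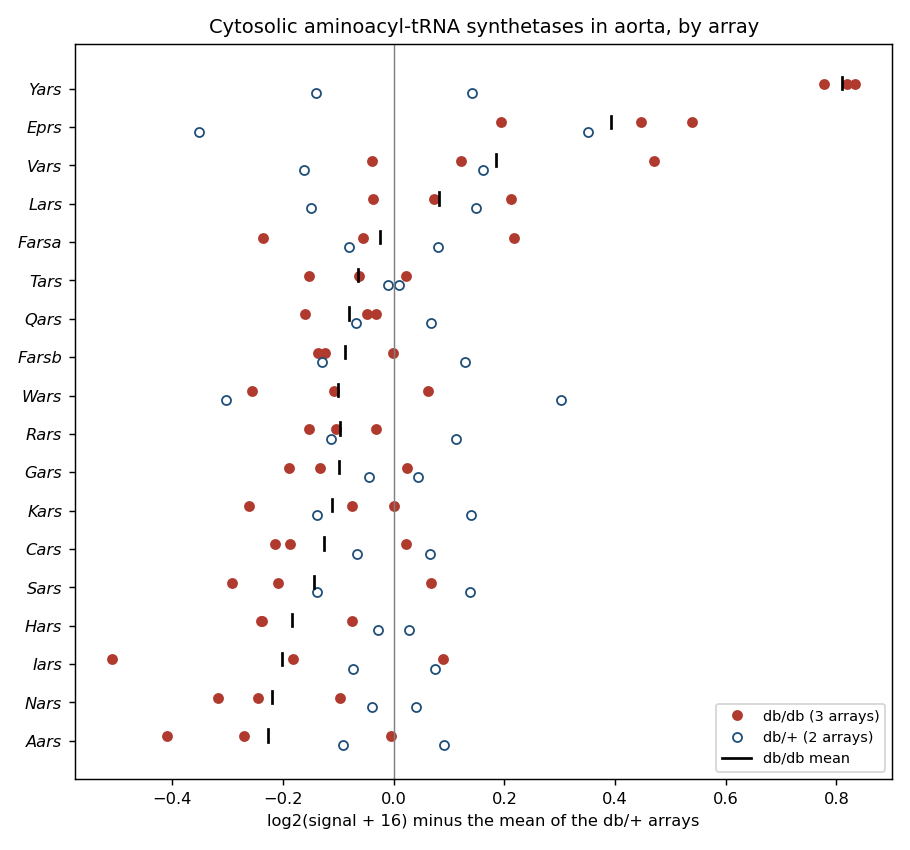
Log2(signal + 16) of each synthetase on each array, minus the mean of the db/+ arrays (filled points db/db, open points db/+, bars the db/db mean), with genes ordered by log2 change. Yars is the gene whose db/db arrays all lie far to the right, with a mean of 0.81, while the means of the other 17 run from −0.23 to 0.39.

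Of the 8 members with a CARE match, the log2 changes were 0.81 for Yars, 0.12 for Chac1, −0.03 for Trib3, −0.06 for Tars, −0.10 for Gars, −0.20 for Iars, −0.23 for Aars and −0.26 for Asns. Genes that share the element therefore had changes of both signs. Apart from Yars they overlapped between genotypes by the brightest probe set.

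The mitochondrial synthetases, which charge transfer RNA inside mitochondria and were not in the list, had a median log2 change of −0.01 over 7 genes past the filter, from −0.10 to 0.29. Of the 7, 0 passed in either direction, also at an unadjusted p under 0.05. Fars2, Hars2, Iars2 and Pars2 had −0.10, 0.07, −0.01 and −0.08. CARE matches were found in 0 of 14 of these genes with a window.

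Genes of the ATF4 set were more spread than the synthetases and went in both directions. Over the 14 genes past the filter the log2 changes ran from −0.59 to 0.65, with quartiles at −0.36 and 0.16 and a median of −0.15, beside 0.02 for all genes. There were 6 positive and 8 negative values. In the fit over all probe sets 0 of 14 passed. At an unadjusted p under 0.05 there were 2 higher (Atf5 and Ddit3), where 4.36% of all genes were higher, and 2 lower (Psat1 and Shmt2), where 4.25% were lower. Psat1 passed the filter only through its db/+ signals, so it had to differ and is not to be read as a lower gene. Psph, with a mean of 48.8 in db/db and 36.8 in db/+, passed only through db/db and is not to be read as a higher gene. The arrays did not overlap for 3 genes higher and 4 lower in db/db, of 14, with Psph and Psat1 among them. Over all genes, 13.7% were higher without overlap and 12% lower. As for the synthetases, these counts come from the contrast that was known when the list was made. They were again 3 and 4 without db/db replicate 1, where 37.3% of all genes did not overlap, against 25.6% with it.

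Among the transcription factors, Atf4 and Atf5 had log2 changes of opposite sign. Atf4 had 542, 519.4 and 734.8 in db/db, against 712.4 and 778.5 in db/+, which gave a log2 change of −0.32 (SE 0.19). Replicate 3 of db/db lay between the db/+ arrays and the other db/db arrays lay below. A second Atf4 probe set had −0.31 (SE 0.24), and the remaining one had no signal above 4.6. Atf5, a close relative whose messenger is also translated under eIF2 alpha phosphorylation, had 811, 756.5 and 602.9 in db/db, against 507.7 and 403.7 in db/+. The genotypes did not overlap, and the log2 change was 0.65 (SE 0.19), with 723 ± 108 in db/db (SD, n = 3) and 456 ± 73.5 in db/+ (SD, n = 2). Over 14 settings it ranged from 0.49 to 0.81. Cebpb, a C/EBP partner of ATF4, had 444, 495.2 and 837.6 in db/db, against 835.2 and 577.9 in db/+. It varied within both genotypes, with a log2 change of −0.28 (SE 0.28).

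The stress effectors were read at lower signals apart from Ddit3. Ddit3 encodes CHOP, a factor of prolonged stress, and had 199.8, 278.3 and 193.7 in db/db, against 151.7 and 162.2 in db/+. All 3 db/db arrays were above both db/+ arrays, replicate 2 most, and the log2 change was 0.46 (SE 0.19). Chac1, which degrades glutathione, had 0.12 (SE 0.17), with db/db signals from 43.4 to 59.6 and db/+ signals of 47.3 and 42.6. Trib3, a pseudokinase that binds ATF4 and CHOP, had −0.03 (SE 0.20), and both genotypes had signals between 42.7 and 64.5. Sesn2, an inhibitor of mTORC1, lay below the filter at both probe sets. The brighter gave 54.4, 35.2 and 36.9 in db/db, against 18.9 and 37.3 in db/+, which overlap.

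Of the 5 enzymes of serine synthesis and one-carbon metabolism, Phgdh, Psat1 and Shmt2 had negative log2 changes, Psph had a positive one and Mthfd2 was near 0, and 0 passed. Phgdh, the first enzyme of serine synthesis, had 261.9, 109.1 and 213.4 in db/db, against 267.1 and 264.1 in db/+. Replicate 2 of db/db was far below the other arrays, and replicate 1 was close to db/+. The log2 change was −0.50 (SE 0.30), −0.16 without db/db replicate 2, and −0.77 (SE 0.21) and −0.27 (SE 0.21) at its other probe sets past the filter. A further 2 probe sets that name Phgdh together with another gene were left out.

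Psat1, the second enzyme, had 40.7, 30 and 27 in db/db, against 49.2 and 64.7 in db/+. All db/db arrays were below both db/+ arrays, and 2 of them lay under the signal of the filter, about 39.5, where folds are understated. The mean was 32.6 in db/db and 57 in db/+, so the db/+ arrays carried the gene past the filter. Its log2 change was −0.59 (SE 0.19), the lowest of the 14, and it was past the filter in 11 of 14 settings. Its other probe set, below the filter, overlapped and had 0.09. Psph, the last enzyme, went the other way, with 38.6, 54.4 and 53.3 in db/db, against 38.2 and 35.4 in db/+ (0.29, SE 0.17). Both db/+ arrays and replicate 1 of db/db lay under the signal of the filter. Psph therefore passed the filter only through db/db and is not to be read as a higher gene. Replicate 1 of db/db exceeded the higher db/+ array by less than 1 unit.

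Shmt2, which passes a carbon of serine to folate in mitochondria, had 122.5, 127.2 and 131.1 in db/db, against 174.1 and 165.4 in db/+. The genotypes were well separated beside their own spread, and the log2 change was −0.38 (SE 0.15), with 127 ± 4.31 in db/db (SD, n = 3) and 170 ± 6.15 in db/+ (SD, n = 2). A second probe set of Shmt2 gave 75.9, 69.7 and 69.7 in db/db, against 87.2 and 97.8 in db/+ (−0.31, SE 0.15). Of its 2 probe sets below the filter, 1 had −0.25 and the other 0.32. Mthfd2, the next enzyme of the mitochondrial folate path, had 0.01 (SE 0.20) at its brightest probe set and −0.57 (SE 0.20) at another, so its probe sets did not agree. Asns, which makes asparagine and carries a CARE match, had 84.9, 114.4 and 137 in db/db, against 154.8 and 118.1 in db/+ (−0.26, SE 0.21), and overlapped.

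Slc3a2 and Slc7a5 encode the heavy and light chains of a transporter of large neutral amino acids. Slc3a2 had 311.6, 257.8 and 362.3 in db/db, against 414 and 405.6 in db/+. All 3 db/db arrays were below both db/+ arrays, and the log2 change was −0.40 (SE 0.18). Slc7a5 had 103.9, 73.8 and 44.3 in db/db, against 82.3 and 44.5 in db/+. Its arrays ranged widely in both genotypes, with a log2 change of 0.17 (SE 0.31).

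**Figure D3:**
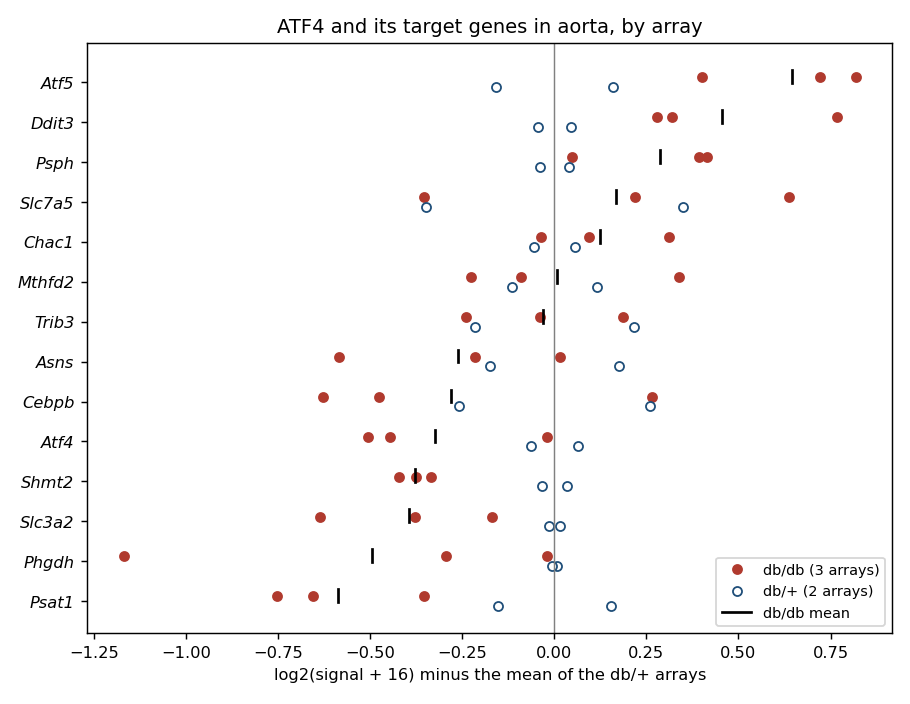
Log2(signal + 16) of Atf4 and 13 further genes of its set on each array, minus the mean of the db/+ arrays (filled points db/db, open points db/+, bars the db/db mean). Atf5, Ddit3 and Psph lie to the right on all db/db arrays, and Shmt2, Slc3a2, Phgdh and Psat1 to the left, with means from −0.59 to 0.65 over the genes. Psph passed the filter only through db/db, and Psat1 only through db/+.

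**Figure D4:**
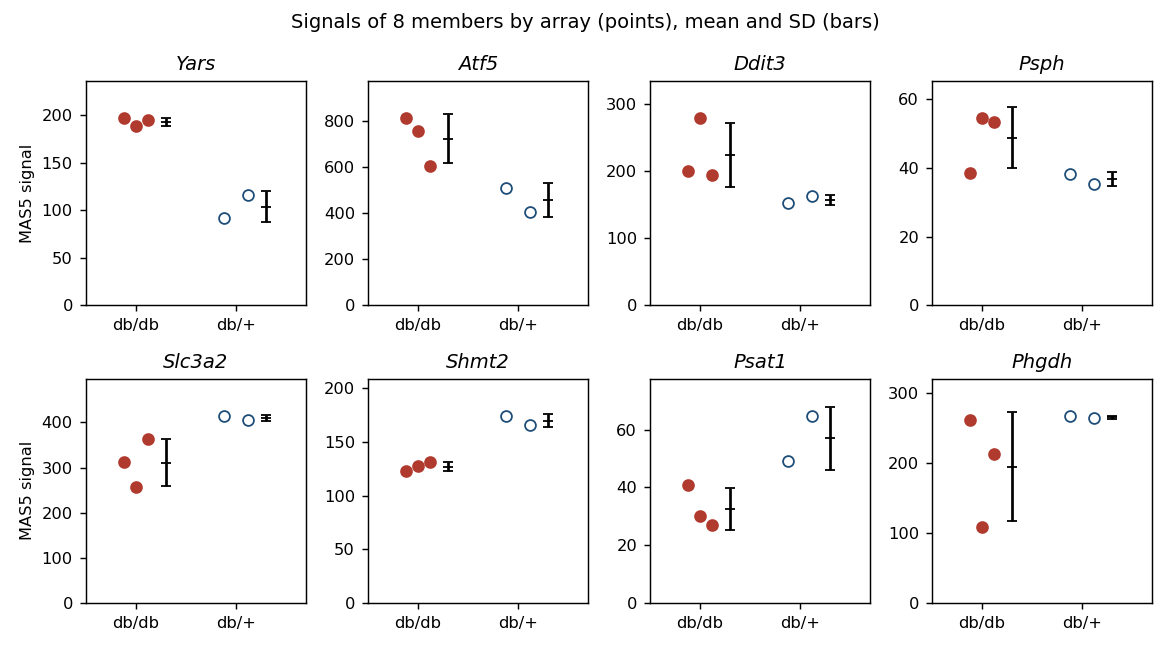
MAS5 signals of Yars and of 7 genes of the ATF4 set whose genotypes did not overlap, on axes that start at 0 (points are arrays, bars the mean and SD of 3 db/db and 2 db/+ arrays). Yars has 193 ± 4.3 in db/db and 104 ± 16.5 in db/+, while Phgdh is spread between 109.1 and 261.9 in db/db. Psph passed the filter only through db/db, and Psat1 only through db/+.

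Of 20 further target genes of ATF4 that lay outside the list and past the filter, 0 passed, with 1 higher and 6 lower in db/db at an unadjusted p under 0.05, where 4.36% and 4.25% of all genes lay. Of those lower, Gpt2, with a mean of 31 in db/db and 58 in db/+, and Bcat1, with 36.8 in db/db and 71.3 in db/+, passed the filter only through db/+. The median of the 20 was −0.06, from −0.89 to 0.54. The first members of that list past the filter were amino acid transporters. Slc1a5, a glutamine transporter, had 382.8, 472.7 and 355 in db/db, against 670.4 and 583.8 in db/+ (−0.62, SE 0.18, limma adjusted p = 0.35). Slc38a2, another carrier of neutral amino acids, had 626.5, 527.6 and 727 in db/db, against 910.3 and 790.9 in db/+ (−0.44, SE 0.18, limma adjusted p = 0.60). Both were lower on all db/db arrays, as was Slc3a2, and neither passed. Slc1a4 and Slc6a9, carriers of neutral amino acids and of glycine, had 0.39 (SE 0.22) and 0.23 (SE 0.18) by their brightest probe sets, and −0.57 (SE 0.38) and 0.01 (SE 0.24) by another each. All 4 of these probe sets overlapped, and no direction is given. CARE matches were found in 8 of 24 genes of that list (33.3%).

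Upstream of ATF4, 12 genes past the filter for kinases, phosphatase subunits or eIF2 and eIF2B subunits had log2 changes from −0.21 to 0.06, with a median of −0.10. Of these, 0 passed, also at an unadjusted p under 0.05. The kinases Eif2ak1 (HRI) and Eif2ak3 (PERK) had −0.16 (SE 0.16) and 0.03 (SE 0.16) by their brightest probe sets. A second probe set of Eif2ak1 had 0.20 (SE 0.16), higher in db/db without overlap, so no direction is given for it. The phosphatase subunits Ppp1r15a, itself a gene induced in this response, and Ppp1r15b had −0.21 (SE 0.23) and −0.07 (SE 0.18). Eif2ak4, which encodes GCN2, lay below the filter, with signals from 4.5 to 16.5 in db/db, against 19 and 8.9 in db/+. Amino acid sensing genes upstream of mTORC1 had a median of −0.08 over 12 genes, with 0 past the threshold and 0 at an unadjusted p under 0.05. Mtor, Rheb, Rraga and Rragc had −0.10, −0.08, −0.09 and −0.13 by their brightest probe sets. A second probe set of Mtor had 0.20 (SE 0.16), higher in db/db without overlap.

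The C/EBP and AP-1 type partners of ATF4 had 0 of 8 past the threshold and 2 lower at an unadjusted p under 0.05, where 4.25% of all genes were lower. Cebpd had 463.5, 295.1 and 395.2 in db/db, against 574 and 577.8 in db/+ (−0.59, SE 0.20, limma adjusted p = 0.47). Cebpa, also a regulator of fat and liver genes, had 673.4, 912.1 and 929.7 in db/db, against 1255.2 and 1046.6 in db/+ (−0.46, SE 0.19, limma adjusted p = 0.60). Both were lower on all db/db arrays by the brightest probe set, but a second one of Cebpd overlapped (0.03, SE 0.22). Cebpg had −0.12 (SE 0.16), and −0.20 (SE 0.16) at a second probe set, in both cases lower on all db/db arrays. Its remaining probe set lay below the filter and overlapped. Atf3 had 0.39 (SE 0.45) and overlapped.

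Genes of the ATF6 and XBP1 arm raise folding capacity in the endoplasmic reticulum. Over 19 of them past the filter the median was 0.06, from −0.46 to 0.29, with 0 past the threshold and 0 at an unadjusted p under 0.05. Signals did not overlap for 4 genes higher and 4 lower in db/db, of 19, where 13.7% and 12% of all genes did so. The chaperones Hspa5, Hsp90b1 and Canx had −0.01, 0.08 and 0.06 by their brightest probe sets and overlapped, while a second probe set of Hsp90b1 had 0.34 (SE 0.18) without overlap. Calr, a calcium-binding chaperone, had 2924.2, 2825.8 and 2326.9 in db/db, against 2261.4 and 2223.1 in db/+ (0.26, SE 0.17), without overlap. Its other probe sets had 0.25 (SE 0.20), with overlap, and 0.47 (SE 0.20), without.

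**Figure D5:**
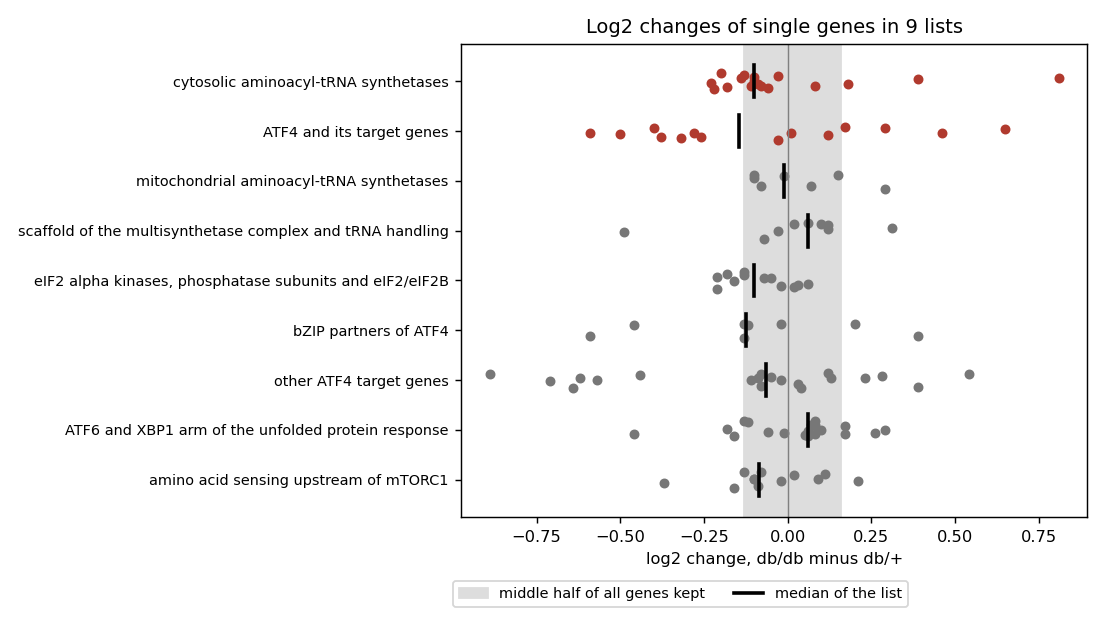
Log2 changes (db/db minus db/+) of single genes in the synthetase list, the ATF4 set and 7 related lists (points), with the median of each list (black bars) and the span between the quartiles of all genes tested (grey, −0.13 to 0.16). The synthetases lie close together apart from Yars at 0.81, and the ATF4 set is spread from −0.59 to 0.65.

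Markers of several cell types differed between the genotypes as well, and their part in the values above was not tested. Over 8 macrophage markers, all past the filter, the summed signal was between 1826 and 2232 in db/db and between 3164 and 3881 in db/+. Over 8 endothelial markers it was between 1133 and 1470 in db/db and between 1787 and 1941 in db/+. Hepatocyte markers, of which 7 were measured and Fgb lay below the filter, summed to between 855 and 1209 in db/db and between 1441 and 1515 in db/+. Of the 6 hepatocyte markers past the filter, 2 were higher and 4 lower in db/db without overlap, with log2 changes from −2.24 to 0.86. The summed signals of these lists lay below those of db/+ on every db/db array.

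Summed smooth muscle markers were between 25077 and 30730 in db/db and between 22651 and 26067 in db/+, and those of white fat between 7735 and 13467 in db/db and between 10765 and 11224 in db/+. Brown fat markers ran from 5783 to 11256 in db/db and from 7257 to 8360 in db/+, and cardiac markers from 438 to 3369 in db/db and from 908 to 1174 in db/+. B cell and plasma cell markers ran from 368 to 691 in db/db and from 387 to 494 in db/+. All of these sums overlapped. Of single markers, all 8 of smooth muscle had positive log2 changes, 3 of them without overlap. Of the 6 white fat markers measured, 1 was higher and 2 lower in db/db without overlap. Their log2 changes ran from −2.96 to 0.49, and 1 passed the threshold, lower in db/db. Over all genes, 13.7% were higher and 12% lower without overlap. Markers of the exocrine pancreas, a tissue rich in synthetases, summed to between 255 and 347 in db/db and between 182 and 232 in db/+, without overlap. The acinar genes Cpa1, Cpb1, Cela2a, Ctrb1 and Clps lay below the filter, and 3 of 8 lay above it.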

How the data were processed

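The deposited table held 1 linear signal intensity for each probe set and array, made by the authors with MAS5 according to the submitters' processing notes (version not given). The 2% trimmed mean was 150.05 on every array, so no further normalization was applied. Detection calls were not used here, and no genome build was needed for the probe set values. The table held 22690 probe sets, of which 64 controls were left out. The platform annotation gave 1 symbol for 20380, several for 691 and none for 1555.

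Values were transformed to log2(signal + 16), filtered at the 40th percentile of the mean (13575 probe sets, 8263 genes) and fitted with limma 3.58.1 in R 4.3.3 (lmFit, eBayes, no covariates). Benjamini-Hochberg adjustment ran over all probe sets tested, with a threshold of 0.05. Residual degrees of freedom were 3, and those of the prior 5.63. The test was checked on simulated data.

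The members and lists were chosen with earlier results of these data known. All members were named. Of each further pathway list the first 4 genes past the filter were named in the order written. Genes outside that order, and the neighbours of Yars, were named after their values were seen. Older symbols were matched through the RefSeq table of GRCm38.p6. Orientation of the promoter windows was checked on 1890 overlapping pairs from opposite strands, and all 1890 were reverse complements. Alternatives were a pseudocount of 1 or 64, other filters, array weights, median centring or quantile normalization, a trended and robust eBayes, a replicate block, leaving out each array, a threshold of 0.1 and averaging the probe sets of each gene. The number of arrays limits the precision.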

Additional observations from a re-analysis of the deposited data

How the results depend on the processing

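Of the members, 0 passed the threshold under every alternative run, the threshold of 0.1 included, and so did 0 of the further pathway genes. At an unadjusted p under 0.05 lay between 1 and 7 members and between 2 and 11 of the pathway genes. The synthetase median was −0.13 with median centring, and between −0.12 and −0.06 when each array was left out. The ATF4 set's median was −0.03 with no filter, −0.28 with a filter at the 60th percentile (9 genes), and between −0.21 and −0.05 when each array was left out, with −0.05 without db/+ replicate 2. Without db/db replicate 1, an alternative added after the data were seen, 6 synthetases and 7 genes of the ATF4 set did not overlap between genotypes, where 37.3% of all genes did not. Over all probe sets 11 passed. The number was 2 and 37 with pseudocounts of 1 and 64, 1 with no filter, 22 with a filter at the 60th percentile, 19 with median centring, 39 with trend and robust, 48 with array weights and 48 at a threshold of 0.1. It was between 0 and 28 when each array was left out, with 0 without db/+ replicate 2 (761 at an unadjusted p under 0.05), 1 without db/+ replicate 3 and 28 without db/db replicate 1. Fits that leave 1 db/+ array assume that it varies like the other group. With the replicate number as a block 20 passed. Deviations of same-numbered arrays correlated with r = 0.107 for replicate 2 and r = −0.00476 for replicate 3, so the numbers were not taken to pair the arrays. The cause of these shifts was not tested. Signs of Yars, Atf5, Ddit3, Psph, Slc3a2, Shmt2, Psat1 and Phgdh held in every setting in which they were fitted. These are genes whose genotypes did not overlap, so leaving out an array, another pseudocount or another filter could not turn their signs. Many other members, such as Aars, Atf4 and Cebpb, kept their signs as well. Eprs kept its sign by its brightest probe set only, as its probe sets had opposite signs. The settings counted for signs leave out averaging the probe sets of each gene. With that averaging 3 synthetases had a positive log2 change, against 4 by the brightest probe sets. Signs of Farsa, Mthfd2, Trib3 and Slc7a5 turned in 3 to 5 settings each, and those of Farsb, Kars, Lars, Rars and Wars in 1. The replicate block and the fit without db/db replicate 1 gave the same log2 changes of members, and both are counted. Of the members, 6 were read by probe sets with the suffix x or s, which may cross-hybridise.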
